A study of Mus musculus with 8 samples.

Results

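The genes described here are 34 genes of the actin cytoskeleton, the contractile apparatus and the serum response factor (SRF) axis, measured in fetal thymic epithelial cells (TECs) directly after sorting and after culture. They were found by matching the Ensembl identifiers of the deposited tables to the member symbols, and 34 of 34 were among the 56923 genes counted. Of these, 32 passed the filter on low counts and were tested, which asked for 1 count per 1e6 counts (CPM) in 3 or more libraries. *Actg2* and *Cnn1* did not pass and are described by their counts alone.

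Actin filaments give epithelial cells their shape, and non-muscle myosin II pulls on them when its regulatory light chain is phosphorylated. Smooth muscle uses isoforms of its own, such as the actin *Acta2* and the myosin heavy chain *Myh11*, while other members are made in nearly every cell. The transcription factor SRF joins the program together: its partners MRTF-A and MRTF-B are held by monomeric actin and move to the nucleus when filaments assemble, where SRF bound to CArG boxes drives many of these genes. TECs in the thymus form a three-dimensional network rather than a flat sheet, and the comparison here is of sorted cells with flat and gel cultures of such cells.

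The CArG box was looked for in the promoters because it is the sequence that SRF binds. It is 10 bases long, with a pair of C, then 6 bases of A or T, then a pair of G, and its reverse complement has the same form. Windows ran from 250 bases before to 50 bases after the start of each gene's canonical transcript (GENCODE, GRCm39). A box stood in 5 of the 34 members' windows (14.7%) and in 335 of 21770 windows of protein-coding genes (1.54%). With 1 mismatch allowed these shares were 23.5% and 10.1%, and the members added were *Actg2*, *Tpm3* and *Myl9*. Boxes of 4 members are shown in capitals with the neighbouring bases in lower case, 5′ to 3′ on the strand of the gene. Those shown lay 64 bases before the start of *Tagln* (window chr9:45847429-45847498, minus strand), 33 before *Cnn2* (chr10:79824348-79824410, plus), 227 before *Vcl* (chr14:20979216-20979278, plus) and 51 and 31 before *Srf* itself (chr17:46867131-46867200 and chr17:46867120-46867180, minus).
Tagln: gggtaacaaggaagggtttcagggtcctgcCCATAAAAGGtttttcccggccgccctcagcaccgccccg
Cnn2: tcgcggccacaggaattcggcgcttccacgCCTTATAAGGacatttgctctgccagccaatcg
Vcl: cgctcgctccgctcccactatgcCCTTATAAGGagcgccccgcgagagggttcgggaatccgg
Srf, outer box: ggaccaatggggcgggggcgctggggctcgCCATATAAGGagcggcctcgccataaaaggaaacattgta
Srf, inner box: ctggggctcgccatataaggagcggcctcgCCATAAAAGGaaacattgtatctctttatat
*Cnn2* and *Vcl* carried the same box, and so did *Tagln* and the inner site of *Srf* in the letters shown. A match describes letters only, and a window without one says nothing about whether SRF acts on that gene. Since the list was drawn up to include SRF genes, the shares above test no link between the members and SRF.

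All libraries came from wild-type C57BL/6J embryos at E16.5, with no genetic alteration, and there were 2 libraries in each of 4 groups. In vivo TECs were EpCAM+ cells, gated with antibodies to Ter119, CD45, CD31 and PDGFR, and lysed right after sorting. The 2D group was the same kind of cell grown on laminin-coated plastic and taken on day 3, when the layer had become confluent, and the organoids had grown in Matrigel and were taken on day 3 (D3) or day 7 (D7). Their treatment label is none, but the TEC medium used for cultures contained FGF7. Per the methods, thiazovivin, a small-molecule kinase inhibitor, was in the collection medium after the sort and in the organoid medium at the start of culture, and its part in any value below was not tested. The labels call the replicates biological, and a figure legend of the study names them as mice. P-values here rest on the spread between the 2 libraries of each group, pooled over the 4 groups and moderated across genes. They measure no other variation.

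Libraries held 5084715 to 7612532 counts. As 3′ sequencing gives about 1 read site per transcript, CPM need no scaling to length when genes are set side by side. Levels of genes that share end sequence with others are less sure, since their reads may be divided between copies or not counted. Libraries of the same group differed by more than sampling noise in every group. Of the 8 epithelial markers, *Epcam* (192 to 814 CPM), *Cdh1* (426 to 1496), *Krt18* (251 to 3597), *Krt8* (66.0 to 1023), *Krt5* (67.0 to 747) and *Krt14* (19.8 to 1047) were present in every library. *Krt8* was at 378 and 462 CPM in vivo and at most 103 in the organoids. The TEC regulator gene *Foxn1* was at 224 and 274 CPM in vivo, 4.83 to 9.65 in 2D and D3, and 60.7 and 85.2 in D7. *Psmb11*, a proteasome gene of cortical TECs, was at 523 and 556 CPM in vivo, 0.507 to 0.979 in 2D and D3, and 106 and 113 in D7. Markers of blood cells summed to 819 and 548 CPM in vivo (*Rag1* 287 and 133, *Cd74* 297 and 314, *Ptprc* 95.6 and 42.0, *Lck* 92.3 and 30.2, *Cd3e* 42.6 and 26.0), to 7.64 to 23.8 CPM in 2D and D3, and to 97.1 and 125 CPM in D7, where *Cd74* made up 80.0 and 107 and *Lyz2* 12.2 and 10.3. *Cd74* is not specific to blood cells, since it serves MHC class II, which the study saw on some organoid cells. In D7 *Ptprc* was at 0.124 and 0.791 CPM and *Cd3e* at 0.248 and 0 CPM. Endothelial markers summed to at most 5.22 CPM and striated muscle markers to at most 15.0 CPM in any library. In bulk RNA, fewer cells of a type and less RNA per cell cannot be told apart.

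Cells in 2D stood apart from the other 3 groups. The 34 genes together took up 24387 and 23822 CPM in 2D, against 7990.3 and 8370.0 in vivo, 7955 and 7552 in D3 and 7081 and 8034 in D7. The sums in the organoids and in vivo lay close together, and no 2D library came near them. Against in vivo, 25 of the 32 tested members were higher in 2D and 2 were lower, by edgeR's quasi-likelihood test at a Benjamini-Hochberg adjusted p of at most 0.05. Of all 14504 genes tested, 20.0% were higher, 21.8% were lower and 41.9% changed in either direction. The median log2 fold change was 1.69 over the members and -0.06 over all genes. When scaled by library size alone the median of all genes moved to -0.24, and the same number of members, 27, passed.

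The organoids were below 2D for most members. In D3, 25 members were lower and 1 was higher than in 2D (all genes: 19.2% lower, 19.3% higher, 38.5% either). In D7, 24 were lower and 2 were higher (all genes: 21.2% lower, 24.4% higher, 45.6% either). Median log2 fold changes of the members were -1.72 and -1.36, against 0.02 and 0.10 over all genes, and with genes at the detection floor set to their bound they were -1.73 and -1.35. Both comparisons and the one above share the 2D libraries, so they are not independent of each other. Under scaling by library size alone the medians of all genes were 0.29 and 0.31.

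Against in vivo the organoids moved in both directions. In D3, 9 members were higher and 7 lower (all genes: 14.2% higher, 14.1% lower, 28.2% either), with a median log2 fold change of 0.11. In D7, 10 were higher and 8 lower (all genes: 18.0% higher, 16.8% lower, 34.8% either), with a median of -0.01. From D3 to D7, 5 rose and 6 fell (all genes: 10.9% higher, 10.1% lower, 21.0% either), with a median of -0.10. The count for D7 against in vivo came to 12 without D7 replicate 2 (all genes: 21.2%) and 13 without in vivo replicate 1 (all genes: 25.9%), and the count for D7 against D3 came to 7 without D7 replicate 2 (all genes: 8.65%).

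**Figure D1:**
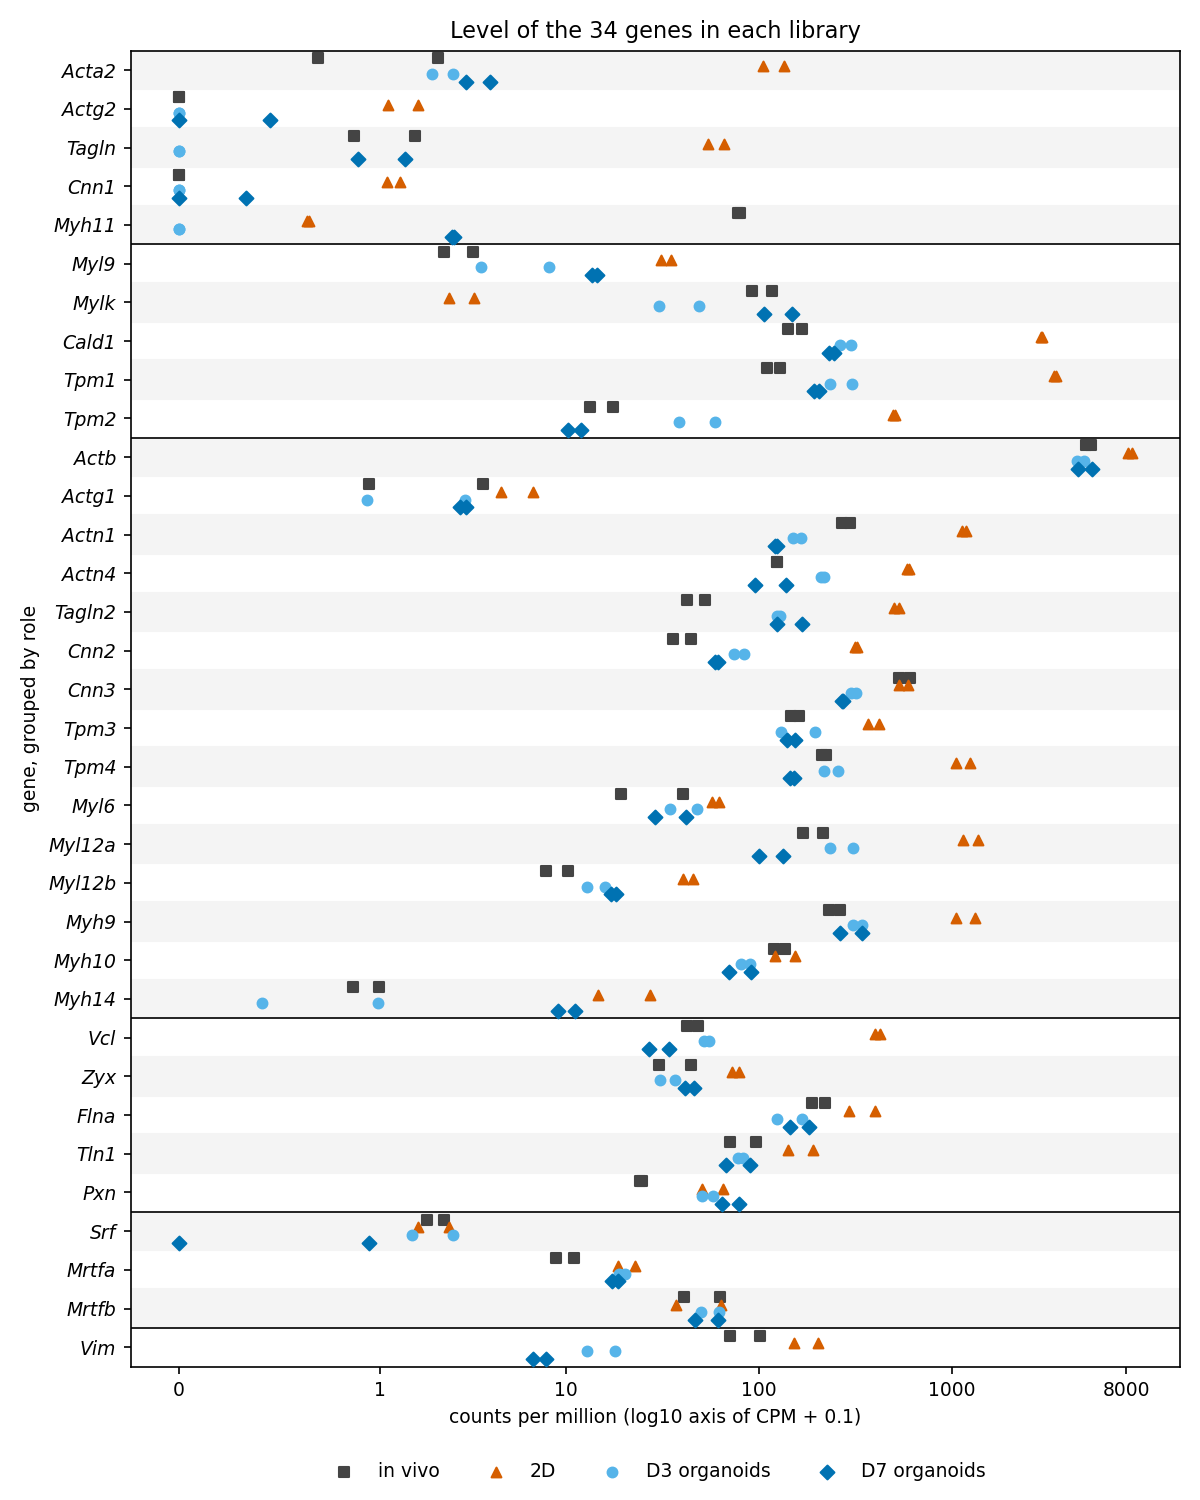
CPM of each of the 34 genes (rows, grouped by role, separated by lines) on a log10 axis of CPM + 0.1, with 1 point per library and 2 libraries per group. In most rows the orange triangles of 2D lie to the right of the other groups, while *Myh11* and *Mylk* show the reverse.

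Among the smooth-muscle-type genes, *Acta2*, which encodes smooth muscle alpha-actin (chr19:34217737-34232990, GRCm39), was at 2.09 and 0.423 CPM in vivo, 135 and 106 in 2D, 2.53 and 1.96 in D3 and 3.97 and 2.97 in D7. The 2D libraries were far above the other 6. 2D exceeded in vivo by a log2 fold change of 6.65 ± 0.39 (SE) (edgeR adjusted p = 9.6e-11). It was 8.09 without in vivo replicate 1 and 5.85 without in vivo replicate 2, and the in vivo level rested on 12 and 3 counts. D7 was above in vivo by 1.57 ± 0.49 (edgeR adjusted p = 0.019), and this call was lost without in vivo replicate 2 (0.76), without D7 replicate 1 (1.31), with limma-voom (1.90) and in a fit of these groups alone (1.5). Without in vivo replicate 1 it was 3.01, and D3 then also passed (2.34).

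*Tagln*, encoding the actin-binding protein transgelin or SM22 (chr9:45840909-45847404), was at 1.57 and 0.705 CPM in vivo, 54.6 and 65.9 in 2D, and 0.744 and 1.38 in D7. No *Tagln* read was counted in either D3 library, which allows up to 3 counts each, or 0.463 CPM on average. The in vivo and D7 libraries overlapped, and those of 2D were far above both. 2D was above in vivo by a log2 fold change of 5.75 ± 0.41 (edgeR adjusted p = 3.2e-09), and 6.38 without in vivo replicate 1. The in vivo level rested on 9 and 5 counts. Against the floor of 3 counts per library, D3 was at least 130-fold lower than 2D and at least 2.45-fold lower than in vivo, and D7 was at least 2.30-fold above D3. The change from D3 to D7 passed the edgeR threshold (adjusted p = 0.0066) but not without D3 replicate 2, with limma-voom or in a fit of these groups alone, and the difference of D3 from in vivo was lost in the fit of those groups alone.

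The enteric smooth muscle actin *Actg2* and the smooth muscle calponin *Cnn1* were also highest in 2D, at very low counts. *Actg2* had 9 and 6 counts in 2D, 0 in both in vivo and both D3 libraries, and 0 and 1 in D7. *Cnn1* had 6 and 7 counts in 2D, 0 in vivo and in D3, and 1 and 0 in D7. In CPM, 2D was at least 2.90-fold (*Actg2*) and at least 2.52-fold (*Cnn1*) above in vivo. Neither gene was tested.

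*Myh11*, the smooth muscle myosin heavy chain (chr16:14012399-14109236), ran the other way. It was at 80.2 and 78.3 CPM in vivo, 0.364 and 0.371 in 2D, and 2.48 and 2.57 in D7, and had no count in D3. The in vivo libraries were far above all cultured ones. In vivo exceeded 2D by 215-fold in observed CPM (1016 against 4 counts, 95% exact counting interval 83.9 to 792) and D3 by at least 171-fold. D7 was below in vivo by a log2 fold change of -4.96 ± 0.30 (edgeR adjusted p = 9.4e-10), yet at least 5.45-fold above D3. It exceeded 2D by 6.85-fold (33 against 4 counts, 95% exact counting interval 2.43 to 26.6), with an edgeR adjusted p of 0.00094 that was past the threshold in all alternatives but limma-voom. Between D3 and 2D both groups were at or below the floor, so no fold is given. That call, which is 1 of the 25 lower members above, was lost on leaving out any library of those groups, with limma-voom, with the DESeq2 Wald test, without the filter and in a fit of those groups alone.

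The genes that make both smooth muscle and non-muscle products split in the same way. *Mylk*, encoding myosin light chain kinase (chr16:34565580-34822790), was at 92.9 and 117 CPM in vivo, 3.27 and 2.41 in 2D, 30.6 and 49.4 in D3 and 107 and 149 in D7. Its 2D libraries were lowest, D3 was intermediate, and D7 overlapped in vivo. The log2 fold change was -5.19 ± 0.31 for 2D over in vivo (edgeR adjusted p = 2.1e-10), -1.39 ± 0.23 for D3 over in vivo (0.00013), 5.48 ± 0.31 for D7 over 2D (1.2e-10) and 1.67 ± 0.23 for D7 over D3 (7.2e-05). Reads at the 3′ end do not separate the kinase from telokin, a short product of the same locus. *Myh11* and *Mylk* were the 2 members that were lower in 2D than in vivo, and *Mylk* was the only member higher in D3 than in 2D.

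*Myl9*, the regulatory light chain typical of smooth muscle, was at 2.26 and 3.24 CPM in vivo, 35.1 and 31.2 in 2D, 3.55 and 8.11 in D3 and 14.5 and 13.6 in D7. It was highest in 2D and second in D7, and none of these groups overlapped. The log2 fold change over in vivo was 3.56 ± 0.39 in 2D (edgeR adjusted p = 4.8e-07), 2.33 ± 0.39 in D7 (0.00014) and 1.08 ± 0.41 in D3 (0.059). D7 was below 2D (-1.23 ± 0.33, edgeR adjusted p = 0.0050), a call lost without 2D replicate 1 (-1.14). The rise from D3 to D7 (1.25 ± 0.36, edgeR adjusted p = 0.018) was lost without D3 replicate 1 (0.80), D7 replicate 1 (1.20) or D7 replicate 2 (1.29), and was 1.92 without D3 replicate 2, whose removal also took D3 against 2D from -2.48 to -3.20. D3 passed against in vivo without D3 replicate 1 (1.54) and in 3 other alternatives (1.15 to 1.17).

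Markers of smooth muscle cells and pericytes outside the members were set beside these genes. Their sum over 8 markers was 50.7 and 42.9 CPM in vivo, 334 and 314 in 2D, 52.9 and 38.2 in D3 and 50.5 and 47.8 in D7. In 2D *Mcam*, also an adhesion molecule of other cells, made up 300.2 and 280.1 CPM of it. *Rgs5* was at 25.1 and 23.8 CPM in vivo, at most 0.559 in 2D and D3, and 10.5 and 12.1 in D7. *Notch3* lay between 10.7 and 30.4 CPM and *Lmod1* between 1.68 and 15.1 CPM across the libraries. *Des*, *Cspg4*, *Kcnj8* and *Abcc9* did not exceed 3.24, 3.10, 0.564 and 1.39 CPM in any library. In vivo, *Myh11* at 78.3 to 80.2 CPM thus stood beside *Acta2* at no more than 2.09 CPM, *Tagln* at no more than 1.57 CPM and *Cnn1* and *Actg2* at 0 counts. Fibroblast markers gave sums of 765 and 793 CPM in vivo, 3145 and 4851 in 2D, 66.8 and 78.6 in D3 and 107 and 99.3 in D7. In vivo and in 2D nearly all of it was *Fn1* (668 to 4814 CPM), so the higher sum in 2D is that of 1 gene. Of the 7 markers of this list that were tested with edgeR, 1 was higher and 3 were lower in 2D than in vivo (all genes: 20.0% higher, 21.8% lower). Apart from *Fn1*, *Dcn* reached 53.6 CPM (D7), *Thy1* 49.8 (in vivo), *Lum* 14.9 (D7), *Col1a1* 12.9 (2D), *Col1a2* 11.7 (D3) and *Col3a1* 10.2 (2D), while *Pdgfra* was at 0 in vivo and at most 1.45 CPM elsewhere. *Pdgfrb* was at 8.18 and 4.23 CPM in vivo and at most 0.371 in the cultures, and *Prrx1* did not exceed 1.57 CPM. The part of such cells in the values above was not tested.

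**Figure D2:**
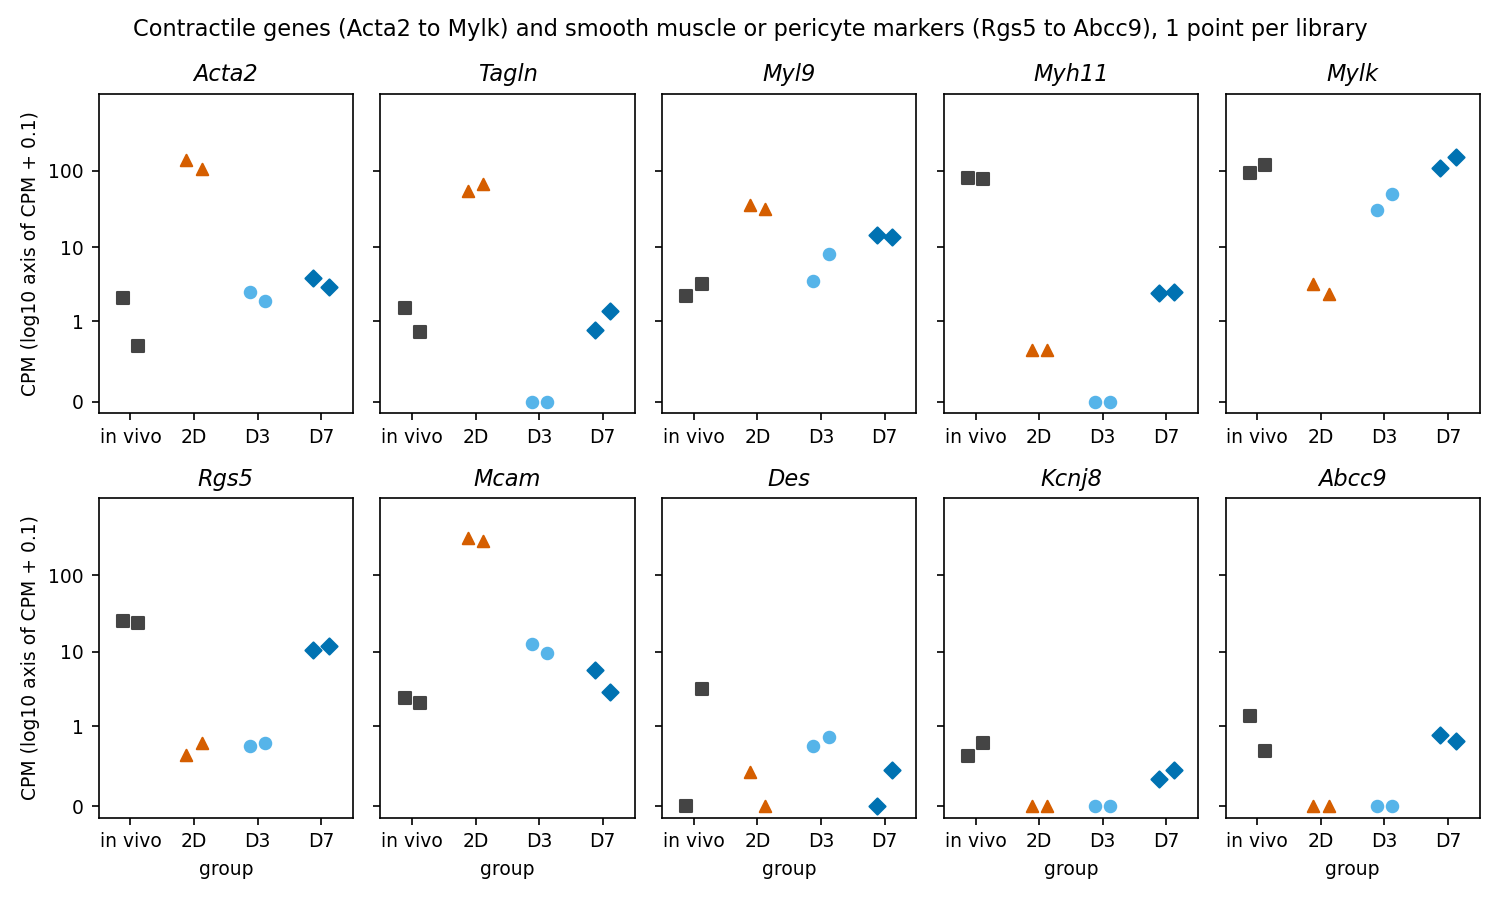
CPM on a log10 axis of CPM + 0.1 for 5 contractile genes (upper row) and 5 smooth muscle or pericyte markers (lower row), with 1 point per library. *Acta2*, *Tagln* and *Myl9* were highest in 2D, *Myh11* was highest in vivo and *Mylk* lowest in 2D. Among the markers *Mcam* was highest in 2D (300.2 and 280.1 CPM). *Rgs5* was highest in vivo (25.1 and 23.8 CPM), at 10.5 and 12.1 CPM in D7 and at most 0.559 CPM in 2D and D3. *Des*, *Kcnj8* and *Abcc9* stayed at or below 3.24 CPM.

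The thin-filament regulators were far higher in 2D than elsewhere. Caldesmon, *Cald1*, which binds actin and restrains myosin (chr6:34575435-34752408), was at 142 and 168 CPM in vivo, 2931 and 2887 in 2D, 299.8 and 263 in D3 and 230.0 and 245 in D7. Tropomyosins lie along the actin filament and set which proteins can bind it, and *Tpm1* (chr9:66929870-66956953) was at 110.0 and 128 CPM in vivo, 3454 and 3361 in 2D, 305 and 233 in D3 and 205 and 193 in D7. Every 2D library was over all others for both genes, and both organoid groups were above in vivo. For *Cald1* the log2 fold change over in vivo was 4.23 ± 0.16 in 2D (edgeR adjusted p = 4.0e-13), 0.86 ± 0.14 in D3 (0.00015) and 0.62 ± 0.14 in D7 (0.0027), the last lost without in vivo replicate 1 (0.50). For *Tpm1* it was 4.84 ± 0.18 in 2D (edgeR adjusted p = 2.7e-13), 1.17 ± 0.16 in D3 (1.1e-05) and 0.74 ± 0.16 in D7 (0.0011).

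*Tpm2*, the beta-tropomyosin gene, was at 17.6 and 13.3 CPM in vivo, 506 and 498 in 2D, 59.5 and 38.9 in D3 and 11.9 and 10.3 in D7. Its D3 libraries lay between 2D and in vivo, and those of D7 lay below in vivo. Its log2 fold change over in vivo was 5.03 ± 0.22 in 2D (edgeR adjusted p = 2.9e-12), 1.68 ± 0.21 in D3 (5.9e-06) and -0.45 ± 0.23 in D7 (0.14), and D7 was below D3 by -2.13 ± 0.22 (2.7e-06). *Tpm1* from D3 to D7 had a log2 fold change of -0.43 ± 0.15 (edgeR adjusted p = 0.052), which passed in 9 alternatives, with -0.68 without D3 replicate 2.

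**Figure D3:**
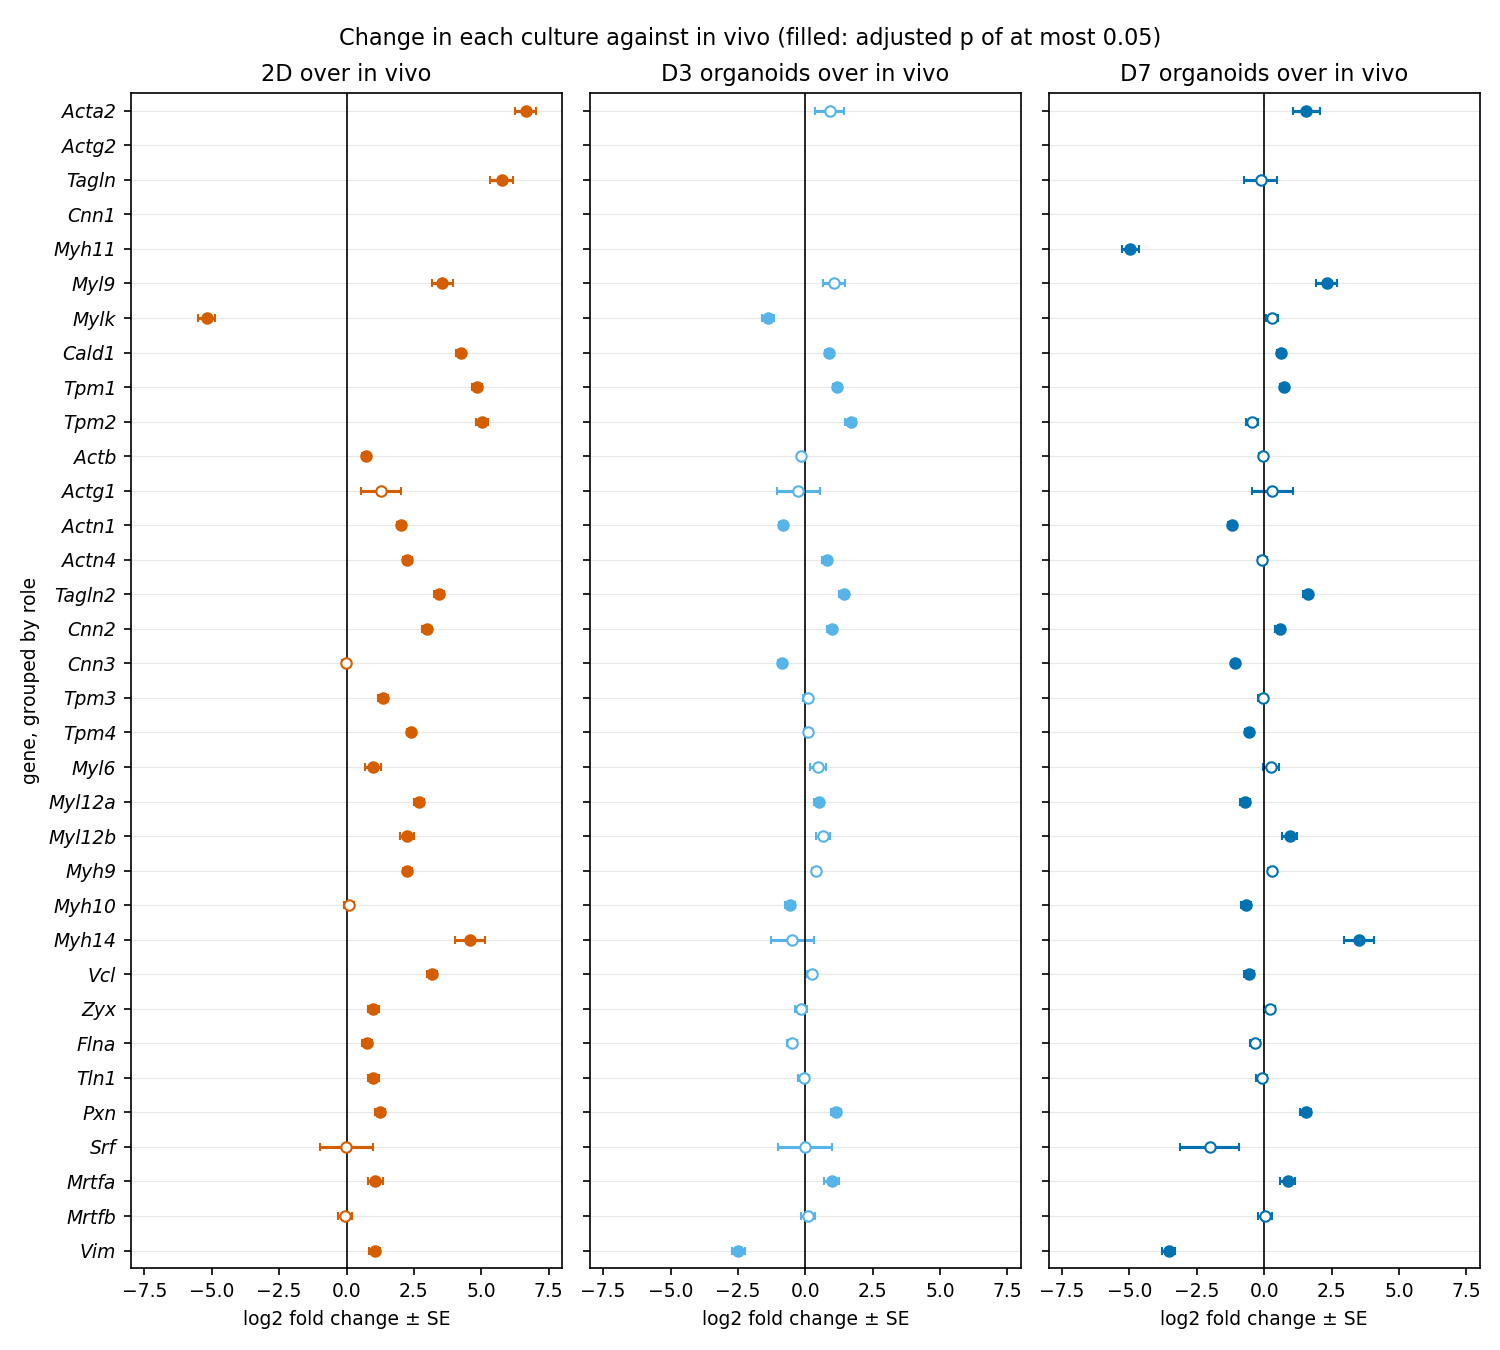
Log2 fold change (x axis, ± SE) of each member (y axis) in 2D, D3 and D7 over in vivo, from 1 edgeR fit of all 8 libraries, with filled points for an adjusted p of at most 0.05. Genes with at most 3 counts in each library of either group (*Actg2* and *Cnn1*, *Myh11* in 2D and D3, *Tagln* in D3) are not drawn, and 2D holds most of the filled points right of 0.

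The ubiquitous actin *Actb* had the highest counts of the members, at 4952 and 5257 CPM in vivo, 8555 and 8189.7 in 2D, 4812 and 4415 in D3 and 4511 and 5306 in D7. It was higher in 2D than in the other groups, which overlapped or lay close together. In 2D the rise over in vivo was 0.71 ± 0.14 (edgeR adjusted p = 0.00044), small beside those of the tropomyosins. *Actg1*, the other cytoplasmic actin, was counted at 0.845 to 6.68 CPM, and 74.7% of the 50-base words in the last 500 bases of its transcript also occur in other genes. Its level is therefore uncertain, and its only call in these comparisons was 2D over in vivo without in vivo replicate 2 (2.68).

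Genes of the transgelin and calponin family, which bind and steady the filament, differed in how far they rose in 2D. *Tagln2*, the transgelin of non-muscle cells, was at 52.7 and 42.6 CPM in vivo, 530.3 and 504 in 2D, 129.6 and 125 in D3 and 125 and 167 in D7. It was above in vivo in all cultures, by log2 fold changes of 3.44 ± 0.18, 1.42 ± 0.17 and 1.61 ± 0.17 (edgeR adjusted p = 2.8e-11, 3.6e-06 and 7.8e-07). *Cnn2*, a non-muscle calponin, was at 36.0 and 44.4 CPM in vivo, 314 and 321 in 2D, 74.7 and 83.9 in D3 and 59.3 and 61.7 in D7. It too was above in vivo in each culture, by 2.98 ± 0.17, 0.98 ± 0.16 and 0.58 ± 0.16 (edgeR adjusted p = 7.2e-11, 0.00015 and 0.010), the last lost without in vivo replicate 1 (0.44) or D7 replicate 2 (0.56). *Cnn3*, the acidic calponin, was at 608 and 535 CPM in vivo, 592 and 529.8 in 2D, 301 and 317 in D3 and 274 and 271 in D7. Its in vivo and 2D libraries overlapped and the organoids lay below both, by -0.88 ± 0.14 in D3 and -1.07 ± 0.14 in D7 over in vivo (edgeR adjusted p = 8.2e-05 and 1.0e-05).

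The alpha-actinins, which bundle filaments, parted in the organoids. *Actn1* was at 270.0 and 296 CPM in vivo, 1129 and 1184 in 2D, 151 and 166 in D3 and 124 and 121 in D7. *Actn4* was at 124 in both in vivo libraries, 597 and 583 in 2D, 211 and 219 in D3 and 139 and 96.1 in D7. Both were highest in 2D, but in D3 *Actn1* lay below in vivo and *Actn4* above it. Over in vivo *Actn1* changed by 2.03 ± 0.14 in 2D, -0.84 ± 0.14 in D3 and -1.21 ± 0.14 in D7 (edgeR adjusted p = 1.3e-09, 0.00013 and 2.2e-06), and *Actn4* by 2.25 ± 0.17, 0.79 ± 0.16 and -0.07 ± 0.16 (3.3e-09, 0.0011 and 0.78). *Actn4* fell from D3 to D7 (-0.86 ± 0.16, edgeR adjusted p = 0.0011). For *Actn1* that change was -0.37 ± 0.14 (0.069), and it passed in 6 alternatives.

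The tropomyosin genes *Tpm3* and *Tpm4* rose less than *Tpm1* and *Tpm2*. *Tpm4* was at 225 and 213 CPM in vivo, 1247 and 1055 in 2D, 256 and 218 in D3 and 153 and 145 in D7, and *Tpm3* at 161 and 147, 422 and 369.6, 196 and 131, and 154 and 141. Over in vivo, 2D was higher by 2.39 ± 0.15 for *Tpm4* (edgeR adjusted p = 3.5e-10) and 1.36 ± 0.18 for *Tpm3* (4.4e-06). D7 was below in vivo for *Tpm4* (-0.55 ± 0.15, edgeR adjusted p = 0.0071) and below D3 (-0.66 ± 0.15, 0.0036), and both calls were lost without D7 replicate 2 (-0.51 and -0.63). *Tpm3* shares 19.5% of its end words with other genes, among them the related sequence *Tpm3-rs7*.

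Non-muscle myosin II heavy chains are the motors of the cortex. *Myh9*, the chain of myosin IIA, was at 231 and 265 CPM in vivo, 1051 and 1313 in 2D, 308 and 344 in D3 and 265 and 341 in D7. *Myh10*, that of myosin IIB, was at 120.5 and 137 in vivo, 121 and 154 in 2D, 90.4 and 81.5 in D3 and 69.8 and 91.7 in D7. *Myh9* thus rose in 2D by 2.25 ± 0.17 (edgeR adjusted p = 2.9e-09), whereas *Myh10* overlapped between 2D and in vivo (0.09 ± 0.18, 0.71). In the organoids *Myh10* was below in vivo by -0.58 ± 0.18 in D3 and -0.68 ± 0.18 in D7 (edgeR adjusted p = 0.019 and 0.0063). The former call was lost without in vivo replicate 2 (-0.47) or D3 replicate 2 (-0.44), and the latter without D7 replicate 1 (-0.49). D3 was below 2D by -0.68 ± 0.18 (edgeR adjusted p = 0.0054), which was lost without 2D replicate 2 (-0.50), without D3 replicate 2 (-0.58) and with library size alone (-0.41). For *Myh9* the log2 fold change of D3 over in vivo was 0.39 ± 0.16 (edgeR adjusted p = 0.078), and it passed with the replicate block (0.40) and in 3 other alternatives.

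*Myh14*, the chain of myosin IIC, was at 0.696 and 0.987 CPM in vivo, 14.7 and 27.3 in 2D, 0.169 and 0.979 in D3 and 9.06 and 11.1 in D7. Unlike the other non-muscle heavy chains it was high in both 2D and D7 and near 1 CPM or below in the other groups. The log2 fold change over in vivo was 4.59 ± 0.56 in 2D and 3.52 ± 0.57 in D7 (edgeR adjusted p = 2.3e-06 and 9.4e-05), and D7 over D3 was 4.01 ± 0.60 (0.00016). The in vivo value rested on 4 and 7 counts. The D3 value rested on 1 and 7 counts, so D7 over D3 ranged from 3.33 to 5.66 and D3 over 2D (-5.07) from -4.40 to -6.78 on leaving out D3 replicate 1 or 2. D7 against 2D was -1.07 ± 0.43 (edgeR adjusted p = 0.051), which passed in most alternatives, with -1.44 without 2D replicate 1.

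The non-muscle light chains rose in 2D as well. *Myl12a*, a regulatory chain, was at 215 and 169.8 CPM in vivo, 1359 and 1138 in 2D, 233 and 309 in D3 and 133 and 101 in D7. Its relative *Myl12b* was at 7.83 and 10.3, 45.6 and 40.5, 15.9 and 12.9, and 17.1 and 18.2, and the essential chain *Myl6* at 19.3 and 40.3, 62.2 and 57.2, 34.8 and 48.0, and 41.9 and 29.1. All 3 had their highest libraries in 2D, with log2 fold changes over in vivo of 2.7 ± 0.19, 2.24 ± 0.26 and 0.99 ± 0.29 (edgeR adjusted p = 1.2e-09, 1.4e-06 and 0.011). *Myl12a* fell from D3 to D7 (-1.21 ± 0.18, edgeR adjusted p = 0.00017). From 13.7% to 41.4% of the end words of these genes occur in other genes, so reads may have been divided between copies.

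Several of the light chain calls were lost when 1 library was left out, some of them with little change in the estimate. For *Myl6* 2D over in vivo was lost without in vivo replicate 1 (0.57) or 2D replicate 1 (0.93) and was 1.64 without in vivo replicate 2, and D7 over 2D (-0.74 ± 0.29, edgeR adjusted p = 0.045) was lost without either 2D replicate, D3 replicate 1 or D7 replicate 2 (-0.51 to -0.80) and with scaling by library size alone (-0.53). Without in vivo replicate 2, *Myl6* also passed in D3 (1.12) and D7 (0.89) over in vivo. *Myl12a* in D3 over in vivo (0.49 ± 0.18, edgeR adjusted p = 0.046) was lost without in vivo replicate 2, D3 replicate 2 or either 2D replicate (0.35 to 0.49). In D7 over in vivo, *Myl12a* (-0.71 ± 0.18, edgeR adjusted p = 0.0050) was lost without in vivo replicate 1 or D7 replicate 2 (-0.53 each), and *Myl12b* (0.95 ± 0.27, 0.0099) likewise (0.77 and 0.91).

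Within several families the mix of genes changed with the culture. *Tpm1* made up 23.5% ± 2.94 (SD, n = 2) of tropomyosin counts in vivo, 62.5% ± 1.59 in 2D, 37.4% ± 0.134 in D3 and 39.3% ± 0.205 in D7. *Tpm4*, the largest in vivo at 43.1% ± 0.868, came to 21.1% ± 1.54 in 2D. *Myh9* supplied 65.7% ± 0.138 of the non-muscle heavy chain counts in vivo and 88.2% ± 0.461 in 2D. *Cnn2* went from 6.63% ± 1.46 of calponin counts in vivo to 36.2% ± 2.15 in 2D, while *Actn1* held 69.5% ± 1.40 and 66.2% ± 1.14 of alpha-actinin counts there and 42.4% ± 0.937 in D3. In D7 *Myl9* was 9.54% ± 1.07 of the regulatory light chain counts, against 1.39% ± 0.541 to 2.51% ± 0.0985 in the other groups. *Acta2* at its highest was 1.56% of actin counts, a share that depends on the uncertain count of *Actg1*. Shares in the families of *Cnn3*, *Tpm3*, *Myl12a* and *Myl12b* have a like limit, since 13.1% to 41.4% of these genes' end words occur in other genes. With 2 libraries a group, a two-sided exact permutation test of a share can give no p below 0.333, so the shares are given as values.

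**Figure D4:**
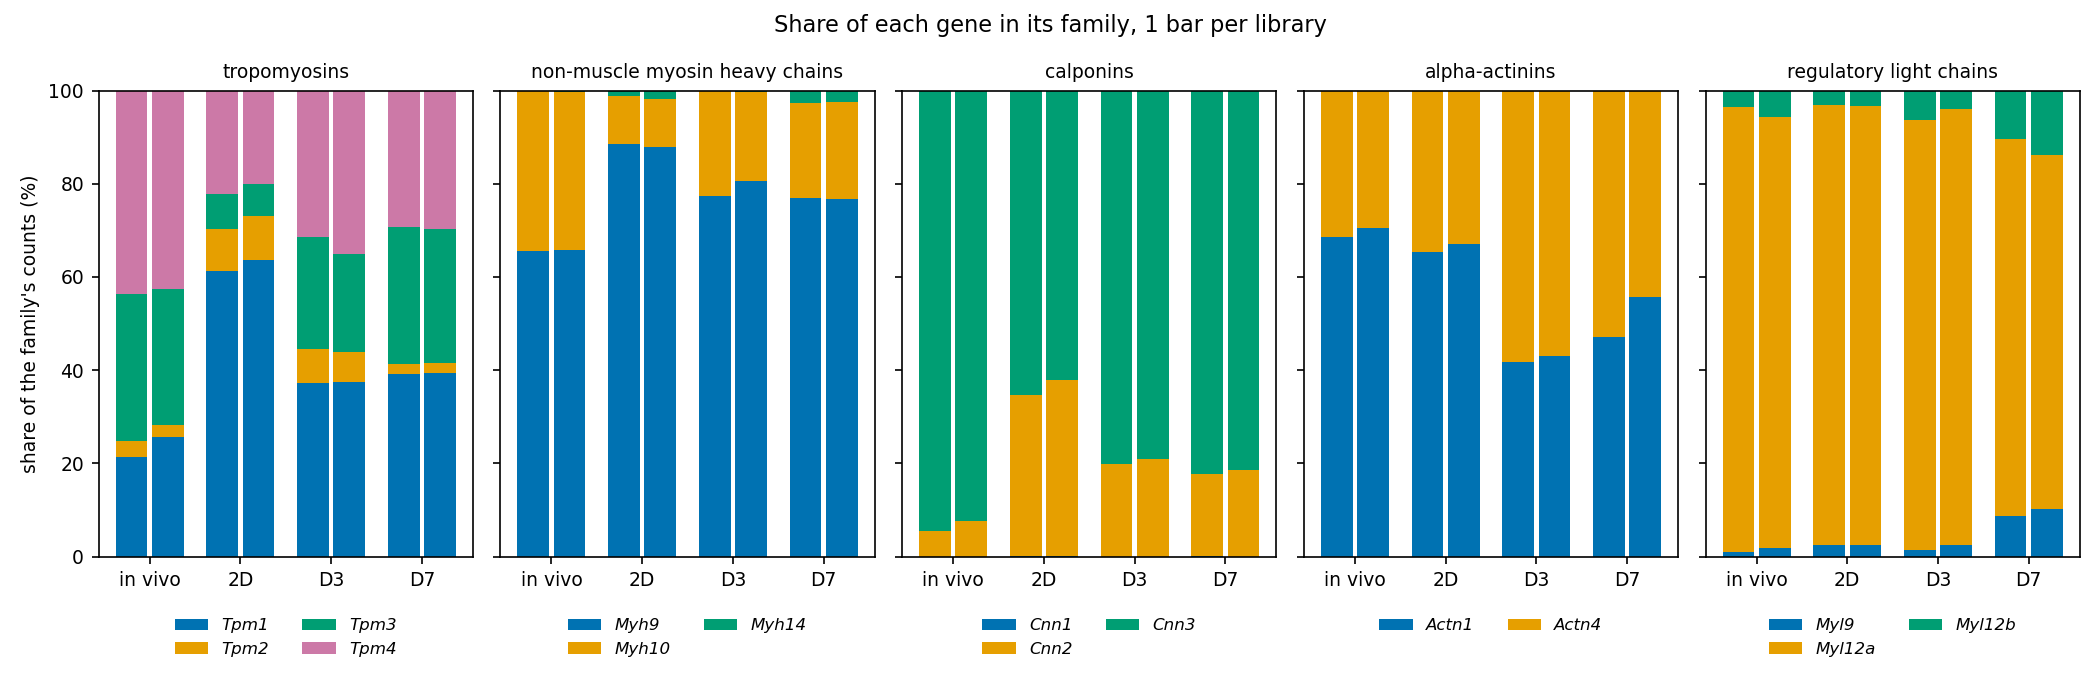
Share of the counts of each of 5 families (y axis, %, bars from 0) taken by each gene, with 1 stacked bar per library and 2 bars per group. *Tpm1* took 61.4% and 63.6% of tropomyosin counts in 2D against 21.4% and 25.6% in vivo, and *Myl9* and *Myl12b* took larger parts in D7 than elsewhere.

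Genes of focal adhesions, the sites where filaments are tied to integrins, were highest in 2D with 1 exception. *Vcl*, encoding vinculin, which reinforces adhesions under load, was at 48.6 and 42.7 CPM in vivo, 399 and 422 in 2D, 55.1 and 52.0 in D3 and 34.2 and 27.1 in D7. Its 2D libraries were far above the rest, by 3.17 ± 0.17 over in vivo (edgeR adjusted p = 3.9e-11). D7 was below in vivo (-0.56 ± 0.17, edgeR adjusted p = 0.015) and below D3 (-0.79 ± 0.17, 0.0027). The former was lost without in vivo replicate 1 (-0.47), without D7 replicate 2 (-0.41) and in a fit of these groups alone (-0.57), and the latter without D7 replicate 2 (-0.64). *Zyx* (zyxin), *Tln1* (talin) and *Flna* (filamin A) rose less in 2D over in vivo, by 1.0 ± 0.21, 0.99 ± 0.20 and 0.76 ± 0.19 (edgeR adjusted p = 0.00072, 0.00049 and 0.0029). Over all libraries they lay at 30.6 to 79.1, 67.7 to 192 and 124 to 401 CPM. The change in *Flna* was lost without 2D replicate 2 (0.51), and D3 over in vivo (-0.49 ± 0.19, edgeR adjusted p = 0.058) passed without D3 replicate 2 (-0.66), with limma-voom (-0.50) and with the replicate block (-0.50).

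The exception was *Pxn*, encoding the adhesion scaffold paxillin, at 24.4 and 25.0 CPM in vivo, 51.1 and 65.3 in 2D, 50.7 and 58.0 in D3 and 64.4 and 79.3 in D7. All cultures were above in vivo, and both organoid groups overlapped with 2D. The log2 fold changes over in vivo were 1.24 ± 0.20, 1.14 ± 0.20 and 1.54 ± 0.20 (edgeR adjusted p = 6.9e-05, 0.00026 and 9.3e-06). D7 over 2D was 0.30 ± 0.19 (0.22), and passed with library size alone (0.50).

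Of the regulators themselves, *Mrtfa* alone passed the test in any of the 6 comparisons. *Srf* was at 2.26 and 1.83 CPM in vivo, 1.64 and 2.41 in 2D, 1.52 and 2.52 in D3 and 0.868 and 0 in D7, on at most 18 counts a library. At this depth a difference was not detectable, with a log2 fold change of -0.01 ± 0.99 for 2D over in vivo (edgeR adjusted p = 0.99) and -2.02 ± 1.10 for D7 over in vivo (0.17). *Mrtfa* was at 11.0 and 8.89 CPM in vivo, 22.7 and 18.7 in 2D, 20.3 and 18.9 in D3 and 18.6 and 17.4 in D7, above in vivo in all cultures. Its log2 fold changes were 1.07 ± 0.28, 0.98 ± 0.27 and 0.87 ± 0.27 (edgeR adjusted p = 0.0043, 0.011 and 0.020). The call in D3 was lost without in vivo replicate 2 (0.85) or D3 replicate 1 (0.93), and that in D7 without in vivo replicate 2 (0.72), D7 replicate 1 (0.81) or D7 replicate 2 (0.91). *Mrtfb* overlapped among all groups at 37.3 to 64.0 CPM (edgeR adjusted p of 0.91 for 2D over in vivo).

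*Vim*, the intermediate filament of mesenchymal and many cultured cells, was at 101 and 70.8 CPM in vivo, 202 and 152 in 2D, 18.1 and 12.9 in D3 and 7.82 and 6.72 in D7. The order from 2D down to D7 held with no overlap between groups. The log2 fold change over in vivo was 1.04 ± 0.21 in 2D, -2.48 ± 0.23 in D3 and -3.54 ± 0.25 in D7 (edgeR adjusted p = 0.00048, 1.3e-07 and 3.7e-09). D7 was below D3 by -1.07 ± 0.27 (edgeR adjusted p = 0.0081), a call lost without D3 replicate 1 (-0.81), without D7 replicate 2 (-0.98) and with limma-voom (-1.02). Blood cells also express *Vim*, and the sum of their 8 listed markers was higher in vivo than in any culture (548 and 819 CPM, at most 125 elsewhere). That sum includes *Cd74*, which is not specific to them. *Ptprc* was at 95.6 and 42.0 CPM in vivo and at most 1.12 in any culture. The part of such cells was not tested.

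Other genes of the pathway were counted from lists that exclude the members. Of 27 tested targets of MRTF and SRF, 19 were higher and 4 lower in 2D than in vivo, their median log2 fold change was 1.96, and 20 were lower and 3 higher in D7 than in 2D. Of all genes, 20.0% were higher and 21.8% lower in the former comparison, and 24.4% higher and 21.2% lower in the latter, and the same shares stand beside the lists that follow. *Fhl2*, an SRF cofactor, was at 191 ± 30.9 CPM (SD, n = 2) in 2D and 0.423 ± 0.598 in vivo, and *Ccn2*, a matricellular growth factor, at 266 ± 54.5 and 0.879 ± 0.751. Both in vivo levels rest on few counts, so their log2 fold changes of 8.63 ± 0.41 and 8.13 ± 0.41 (edgeR adjusted p = 2.0e-11 and 1.8e-10) moved to 7.79 and 7.54 without in vivo replicate 1 and to 13.20 and 9.51 without in vivo replicate 2. *Synpo2*, an actin-bundling protein of muscle, went the other way, as *Myh11* and *Mylk* did. It was at 18.5 ± 2.63 CPM in vivo, 3.21 ± 1.12 in 2D, 74.9 ± 7.63 in D3 and 76.4 ± 5.76 in D7, with a log2 fold change of -2.51 ± 0.29 for 2D over in vivo (edgeR adjusted p = 9.0e-07) and 4.56 ± 0.27 for D7 over 2D (1.8e-10).

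Most of the surrounding machinery that changed was also higher in 2D than in vivo. Of 34 tested genes of actin assembly and turnover, 26 were higher and 3 lower in 2D than in vivo (median log2 fold change 1.28), and 25 were lower and 4 higher in D7 than in 2D (-1.46, all genes 21.2% lower and 24.4% higher). The bundling protein fascin, *Fscn1*, was at 161 ± 11.4 CPM in 2D and 12.2 ± 1.48 in vivo (3.72 ± 0.21, edgeR adjusted p = 6.3e-11). Of 27 tested focal adhesion genes outside the members, 15 were higher and 6 lower in 2D than in vivo (median 0.60, all genes 20.0% and 21.8%), and in D7 over 2D 7 were higher and 12 lower (median -0.10, against 0.10 over all genes). Among them the integrin gene *Itga3* rose (84.2 ± 6.16 against 10.2 ± 0.527 CPM, 3.04 ± 0.25, edgeR adjusted p = 1.3e-08) and the adhesion adaptor gene *Tns3* fell (23.9 ± 4.58 against 101 ± 10.8 CPM, -2.08 ± 0.20, 7.6e-08).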

How the data were processed

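The authors sorted the cells, made QuantSeq 3′ mRNA libraries and aligned reads to GRCm39 with STAR. R 4.1.2, edgeR and limma are named in the submitters' processing notes. The deposited values are raw whole-number counts per Ensembl gene, 1 table per library. The annotation release, strand setting and treatment of reads with several matches are not given in the sources used here, and 19 members have a counted gene overlapping on the other strand (among them *Acta2*, *Tagln*, *Myl9*, *Mylk* and *Tpm1*). Symbols came from GENCODE for 56236 identifiers, and 687 had no match.

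Counts were fitted with edgeR 4.0.16 (R 4.3.3) as deposited: TMM factors (0.880 to 1.09), 1 quasi-likelihood model of 4 groups over the 14504 genes that reached 1 CPM in 3 or more libraries, and Benjamini-Hochberg adjustment over all of them, with a threshold of 0.05. CPM use TMM-scaled library sizes. The SE of a log2 fold change was derived from the test, as its absolute value divided by the square root of the quasi-likelihood F. The study itself used limma-voom (3.58.1 here), which served as an alternative with DESeq2 1.42.0. Further alternatives were other scalings, no filter, ribosomal RNA genes left out (22.7% to 29.4% of counts), the compared groups alone, the replicate block, a further limit on fold change and each library left out. A group with at most 3 counts in each library was treated as at the floor, with exact counting intervals at 95%, which cover counting error only. All 34 members are reported, and from other lists at most the 2 genes with the largest change each way that had at least 10 CPM in the higher group and no overlap, and, of the cell type markers, those above 10 CPM with the defining ones below it that bear on a result. The members and lists were chosen with earlier results of these data known. A planned list and a sequence are not reported here.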

Additional observations from a re-analysis of the deposited data

How the results depend on the processing

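No call of a member's direction turned under the 17 alternatives. Of 192 fold changes of the tested members, 124 passed (all genes: 21.0% to 45.6% in each comparison). Of these, 23 lost the call in at least 1 fit without a library, while some others passed only in such a fit. The share of all genes that lost a call in this way was not counted. Where a library was left out, the remaining one of its group was assumed to vary like the other groups. When a change of at least 1 on the log2 scale was also asked for, the called members came to 8 rather than 16 for D3 over in vivo and to 9 rather than 18 for D7 over in vivo (all genes: 18.7% and 22.8%), since fewer genes can meet it. For D7 over D3 the count ranged from 7 to 11 when 1 library was left out, against 11. The 7 came without D7 replicate 2, where the share of all genes that passed fell as well, as given above. That drop was therefore not particular to the members. Replicate numbers are shared between groups, and the deposited tables' names give same-numbered libraries a common code, but no source says what it means, and same-numbered libraries deviated together only weakly (correlations of 0.0257 to 0.132 across genes). With the replicate block, 27, 18, 18, 26, 27 and 13 members were called (all genes: 44.1, 31.1, 37.9, 41, 47.7 and 24.7%), in the order 2D, D3 and D7 over in vivo, D3 and D7 over 2D, and D7 over D3. Depth limited *Actg2*, *Cnn1* and *Srf* in all groups and *Myh11* in 2D and D3. It also limited *Tagln* in vivo, in D3 and in D7, *Myh14* in vivo and in D3, and *Acta2* in vivo.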

Other observations

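Targets that SRF shares with its TCF partners, the immediate early genes, were lower in the cultures than in vivo for the most part. Per the methods, the in vivo cells were enzyme-digested, exposed to serum, stained and sorted shortly before lysis, whereas 2D cells were lysed directly from culture. The in vivo values are thus those of sorted cells, and the part of this handling was not tested. Of 10 tested, 3 were higher and 7 lower in 2D than in vivo, and 9 were lower in D7 than in vivo, by edgeR's quasi-likelihood test (all genes: 20.0% higher and 21.8% lower in 2D, 16.8% lower in D7). Against 2D, 7 were lower in D3 and 7 in D7, with median log2 fold changes of -1.52 and -1.98 (all genes: 19.2% and 21.2% lower). *Fos* was at 376 ± 13.7 CPM (SD, n = 2) in vivo, 15.3 ± 5.94 in 2D, 5.17 ± 1.77 in D3 and 3.54 ± 1.15 in D7, with a log2 fold change of -4.62 ± 0.25 for 2D over in vivo (edgeR adjusted p = 7.2e-11). *Ier5* went up in 2D, from 51.9 ± 1.24 CPM in vivo to 214 ± 13.5 (2.04 ± 0.18, edgeR adjusted p = 2.4e-08).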
